A study of Mus musculus with 41 samples.

Results

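The mitochondrial ribosomal protein genes are the nuclear genes with symbols of the form Mrpl or Mrps followed by a number. Of 17097 genes measured in mouse epidermal stem cells, 73 carried such a symbol on a probe set that belongs to 1 gene, 46 of them Mrpl and 27 Mrps. Where a gene had several probe sets, the one with the highest mean was used. The rule reads symbols and mean levels.

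Mitochondria keep a small genome of their own, and the few proteins it encodes are core subunits of the respiratory chain and of ATP synthase. They are made inside the organelle by a dedicated ribosome whose RNAs come from mitochondrial DNA and whose proteins are encoded in the nucleus, translated in the cytosol and imported. Some of these proteins descend from those of the bacterial ribosome, and others were added during the evolution of mitochondria. The Mrpl symbols name proteins of the large subunit, which joins amino acids, and the Mrps symbols mostly those of the small subunit, which reads the message. Mrps18a and Mrps30 are exceptions whose products sit in the large subunit, so the 73 genes were counted as 48 large and 25 small subunit genes. By descent, 45 have a bacterial counterpart and 28 do not. Mrps36 is known as a component of the oxoglutarate dehydrogenase complex, and it is counted with the small subunit here only by its symbol.

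RNA came from epidermal stem cells of wild type female C57B6/J mice, 15 weeks old, that had eaten a high fat diet or the matching control diet freely for 7 weeks from the age of 8 weeks. Cells were collected at 6 zeitgeber times, written ZT and counted in hours from lights on, 4 h apart. From ZT0 to ZT20 there were 4, 3, 2, 3, 4 and 4 control arrays and 3, 4, 2, 4, 4 and 4 high fat arrays, which makes 41 in 12 groups. All mice killed on a given day belonged to a single time point, so collection day and time point cannot be told apart. Whether both diets of a time point were collected on the same day is not given in the sources used here, so a diet difference at a time point may also be a difference between days, which was not tested. The labels number the replicates without saying that each is a separate mouse, so p-values measure the spread between arrays, and how the cells were isolated is not given in the sources used here. Values are log2 levels made by RMA, and every difference below is on that scale, with standard errors (SE) and adjusted p from limma over all 17097 genes at a threshold of 0.05.

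All 7 basal keratinocyte markers checked, among them Krt5, Krt14 and Col17a1, lay between the 97.0th and the 99.9th percentile of gene means, so the defining genes of the labelled cells were high. Krt1 and Krt10, which mark differentiating cells, were high as well, at the 99.9th and 99.4th percentiles. The mean of the 7 basal markers was between 11.98 and 12.13 in 10 groups. It was 11.53 (11.47 and 11.59 in the 2 arrays) in control ZT8 and 11.74 (12.01 and 11.46) in high fat ZT8. Suprabasal markers such as Krt10 and Krtdap ran the other way, with a mean of 10.05 in control ZT8 and 9.83 in high fat ZT8 against 9.29 to 9.59 elsewhere. Both control ZT8 arrays and high fat ZT8 replicate 2 therefore stand apart, and each ZT8 group rests on 2 arrays, and the counts of members that rest on these groups are given with and without single arrays. In these bulk samples fewer cells of a type and less RNA per cell cannot be told apart.

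The genes were well expressed. Of the 73 members, 70 had a mean above the median gene and 36 lay in the top 25%, while 1 lay in the lowest 25%. The median of their means was 8.43 against 6.90 for all genes. Mrpl42, a large subunit protein without a bacterial counterpart, had the highest mean at 10.18, and Mrpl47, a counterpart of a bacterial protein, the lowest at 5.57. Levels of different probe sets carry their own hybridisation strength, so these are ranks of signal and not of transcript number.

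The course of the members over the day was described first. The deviation of each gene from its own mean of the 12 group means was taken, and the median over the 73 genes was used as a description of an array or group. In the high fat diet it was 0.37 at ZT12, where 70 of 73 members lay above their mean and 55 had the highest of their 12 groups. In the control diet it was -0.23 at ZT8, where 59 members lay below their mean and 34 had their lowest group. The medians over all genes in those 2 groups were 0.04 and -0.04, and the shares of all genes behind the 4 counts are not given here.

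By array, the high fat ZT12 medians were 0.43, 0.28, 0.38 and 0.27. All 4 lay above every other array of the series, the next being a high fat ZT8 array at 0.18. The control ZT8 arrays lay at -0.11 and -0.38, so the depth of that trough differed between its 2 arrays. Control arrays at ZT12 stayed near the average, at -0.04, -0.01 and 0.01.

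**Figure D1:**
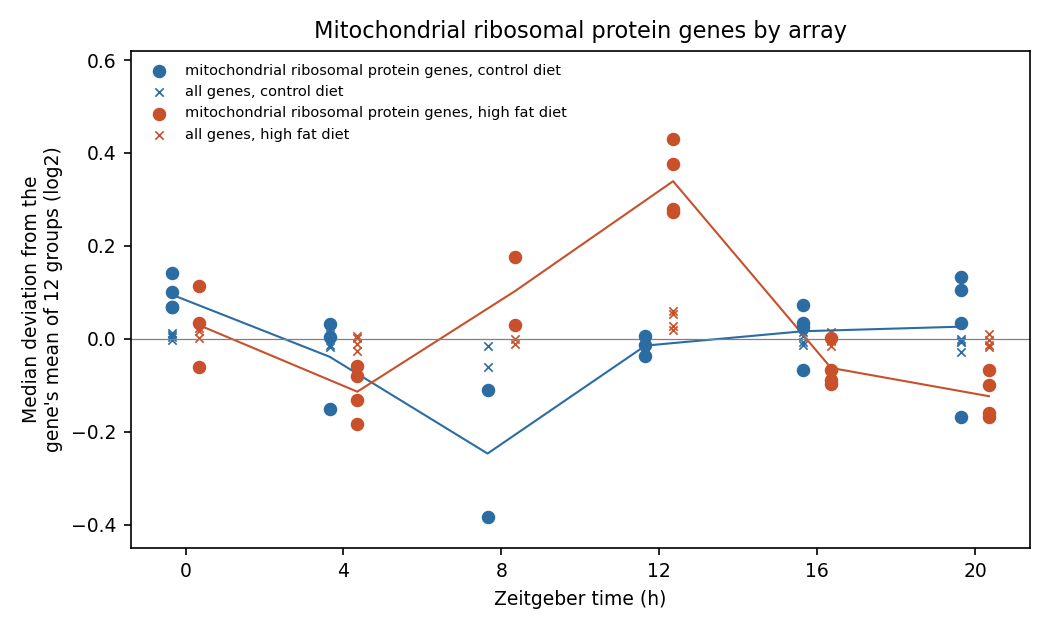
Median deviation of the 73 mitochondrial ribosomal protein genes from each gene's mean of 12 groups (log2, vertical axis) against zeitgeber time in hours, with 1 dot per array, lines through the group means and crosses for the median of all genes. The 4 high fat arrays at ZT12 lie between 0.27 and 0.43, above all others, and the lowest array is a control array at ZT8 at -0.38.

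**Figure D2:**
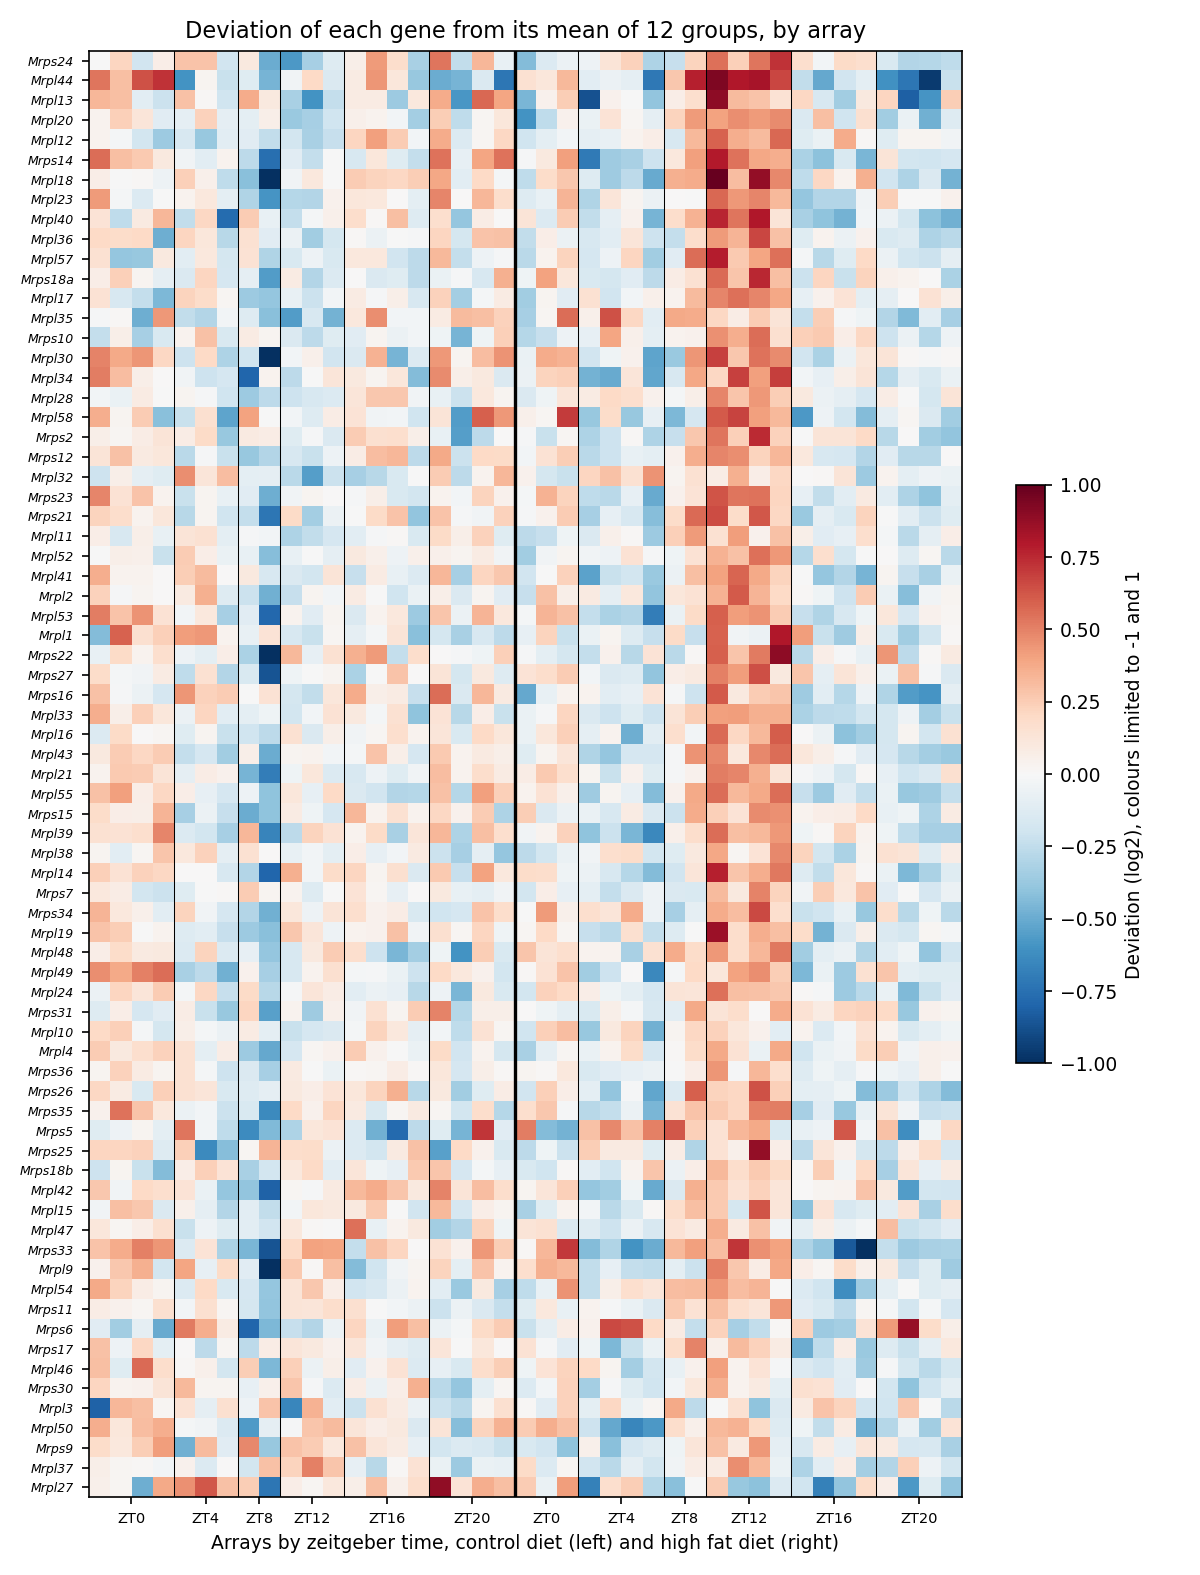
Deviation of each mitochondrial ribosomal protein gene (rows, ordered by diet difference at ZT12) from its mean of 12 groups in each of the 41 arrays (columns, by diet and zeitgeber time), as log2 colours limited to -1 and 1. The high fat ZT12 columns are red in nearly every row, and the control ZT8 columns are mostly blue.

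The first comparison set the diets against each other at each time point. At ZT12, the time of lights off in a standard light cycle, 36 of 73 members were higher in the high fat diet and none lower, while 13.6% of all genes passed the test as higher and 4.44% as lower. The median difference was 0.39, a 1.31-fold higher level, against 0.05 for all genes. The sign was positive for 69 members. The Mrpl genes contributed 24 of 46 and the Mrps genes 12 of 27, and the rise passed in 26 of 45 members with a bacterial counterpart and in 10 of 28 without. These shares were not tested against each other.

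The largest rise at ZT12 was in Mrps24, a small subunit protein with a bacterial counterpart. Its levels were 7.60, 7.85 and 8.05 in the 3 control arrays and 8.72, 8.42, 8.71 and 8.90 in the 4 high fat arrays. Every high fat array lay above every control array, and the difference was 0.85 ± 0.18 (SE), or 1.81-fold (limma adjusted p = 0.00146). Mrpl44, a large subunit protein related to the RNase III family, had control levels of 8.63, 8.87 and 8.52 and high fat levels of 9.60, 9.46, 9.49 and 9.33. These groups did not overlap either, with a difference of 0.80 ± 0.18 (limma adjusted p = 0.00309).

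Mrpl13, a counterpart of a bacterial large subunit protein, stood at 7.39, 7.12 and 7.48 in control and at 8.61, 8.03, 8.00 and 7.86 in high fat arrays. Its difference of 0.79 ± 0.26 was the least precise of the 5 largest (limma adjusted p = 0.0322), and it lost the call when any of the 3 control arrays or high fat replicate 1 at ZT12 was left out, with an adjusted p of up to 0.139. Mrpl20, needed for early assembly of the large subunit in bacteria, had 7.50, 7.54 and 7.67 in control and 8.27, 8.33, 8.30 and 8.34 in high fat arrays. The 4 high fat values lay close together and above all control values, and the difference was 0.74 ± 0.13 (limma adjusted p = 0.000359). Mrpl12, which forms the stalk that binds translation factors and is also reported to bind the mitochondrial RNA polymerase, had control levels of 7.95, 7.81 and 7.90 and high fat levels of 8.72, 8.50, 8.44 and 8.71. Its difference was 0.71 ± 0.12 (limma adjusted p = 0.000239).

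The smallest adjusted p among members at ZT12 belonged to Mrpl28, a large subunit protein with a bacterial counterpart. Its levels were 8.08, 8.13 and 8.15 in control and 8.78, 8.57, 8.73 and 8.54 in high fat arrays. The difference was smaller than those above, at 0.53 ± 0.08, but its spread was narrow (limma adjusted p = 0.000107).

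The remaining members did not pass at ZT12. Of these, 4 had negative differences no larger than their standard errors or close to them, namely Mrpl27 (-0.23 ± 0.23), Mrpl37 (-0.13 ± 0.13), Mrps9 (-0.04 ± 0.16) and Mrpl50 (-0.01 ± 0.15). Mrpl27 and Mrps9 are counterparts of bacterial proteins, and Mrpl37 and Mrpl50 are not. Mrpl27 had control levels of 8.26, 8.21 and 8.29 and high fat levels of 8.44, 7.81, 7.78 and 8.05, so 1 high fat array lay above the control arrays and 3 below.

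The paralogues Mrps18a and Mrps18b encode related proteins that occupy different places in the ribosome, and Mrps18c was not analysed here. At ZT12, Mrps18a had 8.02, 7.65 and 7.81 in control and 8.51, 8.22, 8.70 and 8.24 in high fat arrays, a difference of 0.59 ± 0.14 (limma adjusted p = 0.00448). Mrps18b had 9.17, 9.26 and 8.96 in control and 9.39, 9.24, 9.32 and 9.26 in high fat arrays, a difference of 0.17 ± 0.12 that did not pass (limma adjusted p = 0.320). Whether the paralogues differ from each other was not tested.

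Counted without a model, all 4 high fat arrays exceeded all 3 control arrays at ZT12 in 43 members and fell below them in none. Over all genes these shares were 20.6% and 7.64%. With each array of the series left out in turn, between 24 and 38 members were called as higher at ZT12. The fewest were found without control ZT12 replicate 1, and all 24 of these were among the 36.

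**Figure D3:**
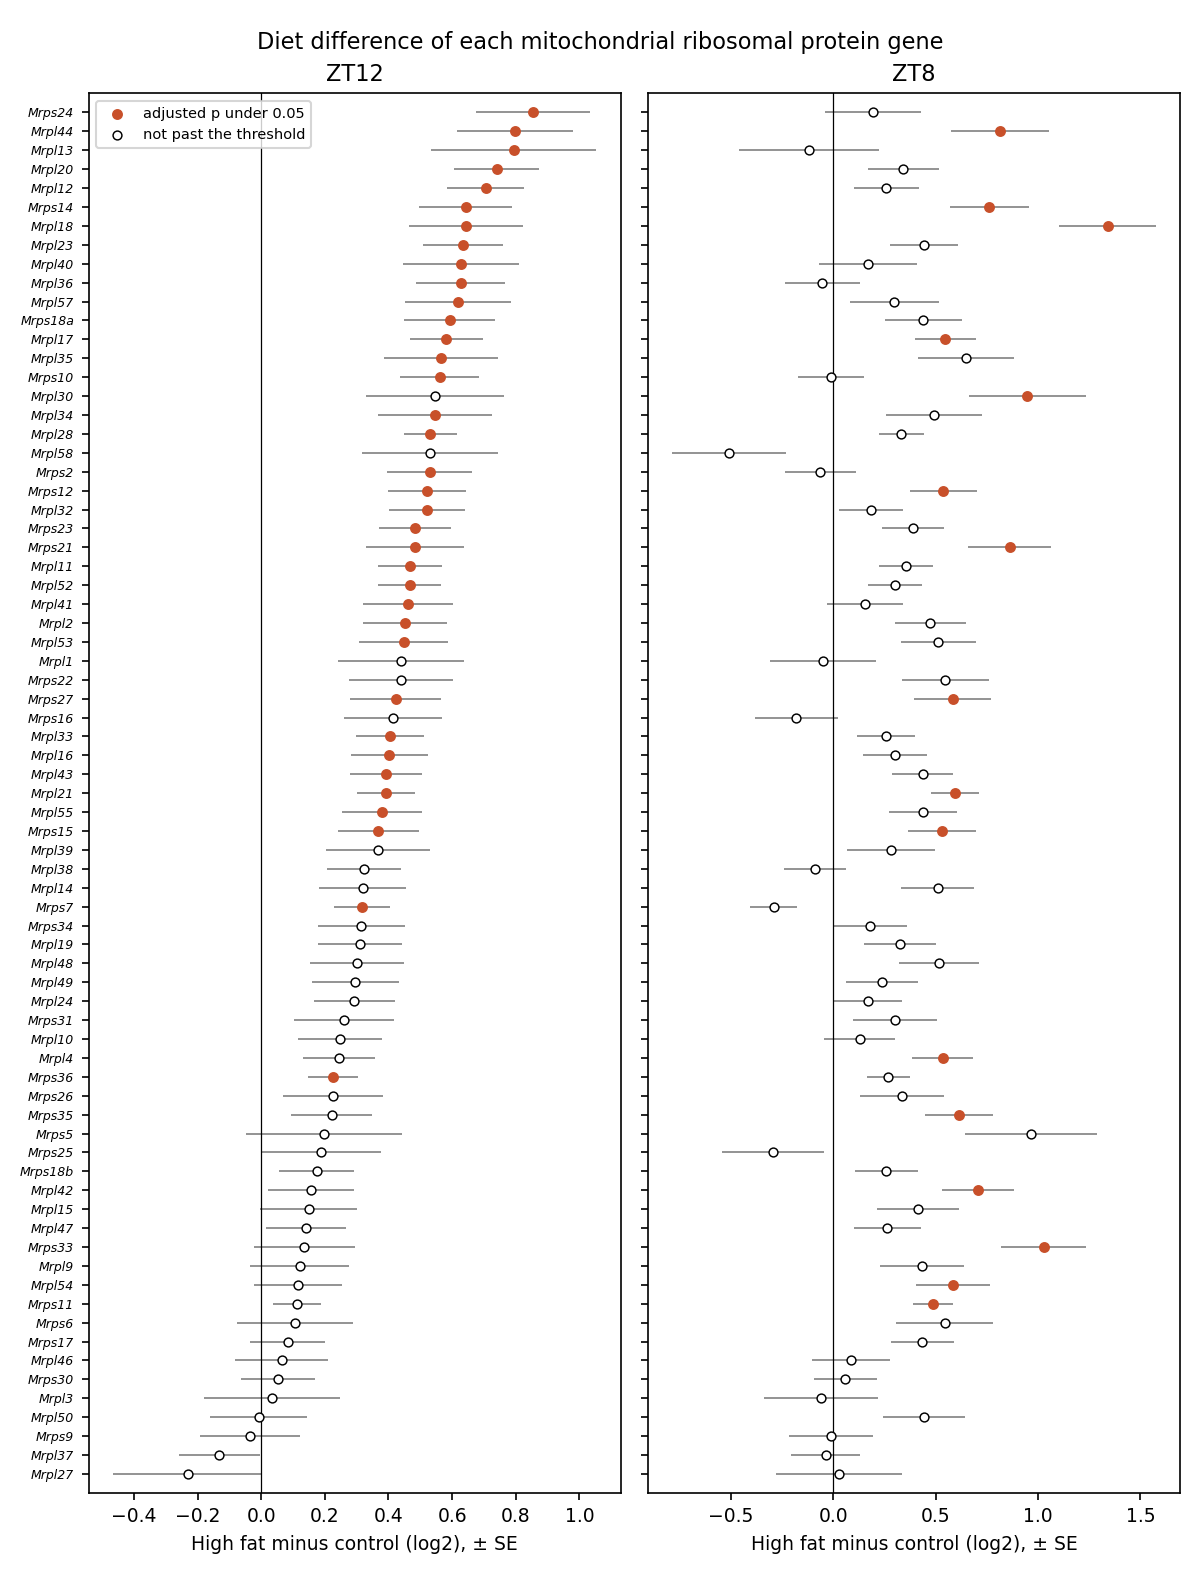
Difference between high fat and control diet (log2, horizontal axis) with its standard error for each mitochondrial ribosomal protein gene at ZT12 (left) and ZT8 (right), in the order of the ZT12 difference, with filled points for adjusted p under 0.05. At ZT12 all 36 filled points lie to the right of 0, from Mrps36 at 0.23 to Mrps24 at 0.85, and at ZT8 all 16 do.

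Promoters are shown for the 2 members with the largest rises at ZT12, for the member with the lowest difference, and for Mrpl58, 1 of the members with most motif matches and the peptidyl-tRNA hydrolase of the large subunit that frees stalled ribosomes. Each is the 250 bases before the start of the gene from RefSeq (GRCm38.p6), read 5′ to 3′ on the strand of the gene, with capitals for a motif match. They lie at chr11:5707702-5707951 (minus strand) for Mrps24, chr1:79775768-79776017 (plus) for Mrpl44, chr11:94653541-94653790 (plus) for Mrpl27 and chr11:115403502-115403751 (plus) for Mrpl58.
Mrps24: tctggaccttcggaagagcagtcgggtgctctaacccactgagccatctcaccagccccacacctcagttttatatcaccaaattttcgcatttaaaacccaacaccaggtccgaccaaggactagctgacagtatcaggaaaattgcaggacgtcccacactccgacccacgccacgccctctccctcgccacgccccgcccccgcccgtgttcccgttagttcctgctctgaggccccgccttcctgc
Mrpl44: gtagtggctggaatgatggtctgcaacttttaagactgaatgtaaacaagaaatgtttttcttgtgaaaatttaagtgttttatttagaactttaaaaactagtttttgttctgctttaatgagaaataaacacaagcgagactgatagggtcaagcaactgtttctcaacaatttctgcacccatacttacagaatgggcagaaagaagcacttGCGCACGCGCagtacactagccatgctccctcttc
Mrpl27: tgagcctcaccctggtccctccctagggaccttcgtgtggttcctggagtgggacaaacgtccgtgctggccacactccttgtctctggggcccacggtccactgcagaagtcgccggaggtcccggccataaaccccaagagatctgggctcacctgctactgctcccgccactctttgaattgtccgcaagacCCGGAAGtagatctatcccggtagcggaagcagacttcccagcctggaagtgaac
Mrpl58: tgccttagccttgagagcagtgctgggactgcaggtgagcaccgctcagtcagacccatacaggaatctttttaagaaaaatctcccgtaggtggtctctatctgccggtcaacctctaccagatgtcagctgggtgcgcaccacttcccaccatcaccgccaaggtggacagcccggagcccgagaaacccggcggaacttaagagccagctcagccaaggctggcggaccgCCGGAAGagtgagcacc

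The capitals in Mrpl44 match the motif of NRF1, a factor known for nuclear genes of mitochondria, and those in Mrpl27 and Mrpl58 match the core of ETS factors such as GABP. The search covered 300 bases, 250 before and 50 after the start, on both strands, with 1 promoter for each of 65 members and 27025 genes in all. The NRF1 motif, GCGCA and GCGC with any base between them, was found in 12 of 65 members (18.46%) and in 4.784% of all promoters. The ETS core CCGGAAG stood in 22 members (33.85%) against 9.121%, and the YY1 motif AANATGGCG in 11 (16.92%) against 2.512%. After the start, Mrps24, Mrpl27 and Mrpl58 each held a YY1 match, and Mrpl58 a second ETS match that spans it.

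Motifs of the clock and of lipid sensing were no more frequent in the members than over all promoters. The E-box CACGTG bound by CLOCK and BMAL1 stood in 4 members (6.15%) and in 7.241% of all promoters, and the RORE TAGGTCA in 1 member (1.54%) against 2.638%. The D-box TTANGTAA and the PPAR element, AGGTCA repeated after any 1 base, were found in none of the 65, against 2.339% and 0.044%. The PPAR element stood in 12 of 27025 promoters, so its absence from 65 says nothing about the members. A match is a run of letters and not a measured binding site. The 27025 genes were not matched to the members by signal, so the shares of any motif compare unlike sets of genes. Of the 22 members with the ETS core 14 rose at ZT12, as did 21 of the other members with a promoter entry, with median differences of 0.44 and 0.37. For NRF1 6 of the 12 with a match rose and 29 of the others, with medians of 0.50 and 0.40, and for YY1 5 of the 11 and 30 of the others, with medians of 0.42 and 0.40. None of these was tested against the other.

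At ZT8 the high fat diet had higher levels of 16 of 73 members and lower levels of none, against 5.42% and 2.92% of all genes. The median difference was 0.34, or 1.26-fold, against 0.03 for all genes, and 60 members had a positive sign. Leaving out control ZT8 replicate 2 gave a count of 0, and leaving out high fat ZT8 replicate 2 gave 4, where the lone array left in a group is assumed to vary like the other groups. It was 23 without control ZT8 replicate 1, 4 with array weights and 0 in a fit to the 4 ZT8 arrays by themselves.

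Mrpl18, a large subunit protein that is also reported to carry 5S ribosomal RNA into mitochondria, had the largest difference at ZT8. Its levels were 8.18 and 7.07 in control and 8.96 and 8.97 in high fat arrays. Both high fat arrays were higher and the control arrays lay far apart, and the difference was 1.34 ± 0.23, or 2.53-fold (limma adjusted p = 0.000569). Mrps33, a small subunit protein without a bacterial counterpart, had 8.15 and 7.74 in control and 8.93 and 9.02 in high fat arrays, a difference of 1.03 ± 0.21 (limma adjusted p = 0.00195).

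Mrpl30, a counterpart of a bacterial protein, had 8.64 and 7.21 in control and 8.46 and 9.28 in high fat arrays. Here the groups overlapped, although the difference of 0.95 ± 0.28 passed (limma adjusted p = 0.0346). Mrps21 had 7.30 and 6.82 in control and 7.73 and 8.11 in high fat arrays (0.86 ± 0.20, limma adjusted p = 0.00688). Mrpl44 had 8.54 and 8.20 in control and 8.93 and 9.44 in high fat arrays (0.82 ± 0.24, limma adjusted p = 0.0306). All 5 of these calls were lost without control ZT8 replicate 2. By plain counting, both high fat arrays exceeded both control arrays in 41 members and fell below them in 3, against 28.0% and 18.5% of all genes.

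Of the 16 members higher at ZT8, 9 (56.2%) were also called at ZT12, where they made up 25.0% of the 36. The other 7 of the 16 included Mrps33 and Mrpl30, and 43 members were called at either time. The called members were also read against the other times of day in each diet. Those contrasts reuse the arrays that made the calls, so the counts are partly built in. Of the 16, 14 were below the other times of day in the control diet and 1 was above them in the high fat diet. Of the 36 called at ZT12, 34 were above the other times in the high fat diet and 1 was below them in the control diet. The same count over all genes called in this way is not given here. Which group set the diet difference was therefore not tested.

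Cell markers moved beside these results. At ZT8 the basal marker Krt14 was higher in the high fat diet (0.37 ± 0.10), as was Krt15 at ZT12 (0.27 ± 0.07), each 1 of 7 basal markers. At ZT8, 3 of 9 suprabasal markers and 3 of 6 hair matrix markers were lower, and the mean of the hair matrix markers was 6.31 in control and 5.83 in high fat arrays. Of the 7 leukocyte markers, 2 were higher at ZT8, and at ZT12 4 were higher (H2-Aa, H2-Ab1, Cd207 and Cd74, which mark antigen-presenting cells such as Langerhans cells) and 1 was lower (Cd52). At ZT12, 3 of 9 suprabasal markers were higher and 2 of 6 melanocyte markers lower. Single markers of other lists also passed, with the endothelial Pecam1 and the fibroblast Dcn lower at ZT8, and the muscle gene Ckm higher and the sebocyte gene Plin5 lower at ZT12. The mean level of the 7 leukocyte markers ran from 6.93 to 7.03 over the control arrays and from 7.09 to 7.31 over the high fat arrays at ZT12. Ptprc, the pan-leukocyte marker, lay at the 1.72 percentile of gene means, Cd207 and Cd3e at 26.0 and 37.3, and Cd52, Cd74, H2-Aa and H2-Ab1 between 67.9 and 76.1. Fibroblast, endothelial and adipocyte lists had group means of at most 5.78. The part of these markers in the results was not tested. The high fat ZT8 array with the lower basal mean of 11.46 and the higher suprabasal mean of 10.22 had the higher median deviation of the members, at 0.18 against 0.03 in the other. Between groups it ran the other way, since control ZT8 had the lowest basal mean and the lowest median deviation of the members, at -0.23. Each ZT8 group holds 2 arrays, and the relation of marker means to the members was not tested.

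At the remaining times few members differed between the diets. At ZT0 and ZT4, limma called 0 of 73 members, against 0.854% and 0.386% of all genes. At an unadjusted p under 0.05 the counts were 4 and 10 of 73, against 2198 and 2039 of all 17097 genes, and the median differences were -0.06 and -0.08. With array weights 1 member was lower at ZT0. At ZT16 and ZT20 the medians were -0.10 and -0.14, or 0.935-fold and 0.91-fold, against 0.998-fold and 1.003-fold for all genes. Of the members, 52 and 58 had a negative sign, and 56 were positive at ZT12 and negative at ZT20. Shares of these signs over all genes are not given here.

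At ZT16 the call was Mrps33, lower in the high fat diet, while 1.24% of all genes passed, 0.661% as lower and 0.579% as higher. Its levels were 8.37, 8.90, 8.82 and 8.61 in control and 8.30, 8.21, 7.77 and 7.48 in high fat arrays. The groups did not overlap, and the difference was -0.74 ± 0.15 (limma adjusted p = 0.00893). In a fit to these 8 arrays alone the adjusted p was 0.155. Mrps33 thus lay lower at ZT16 and higher at ZT8 in the high fat diet, each past the threshold.

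At ZT20 the call was Mrps16, also lower, against 0.702% of all genes, 0.392% lower and 0.310% higher. It encodes a small subunit protein with a bacterial counterpart, and its loss is known to cause a mitochondrial disease in newborns. Its levels were 8.77, 8.07, 8.54 and 8.30 in control and 7.91, 7.65, 7.62 and 8.12 in high fat arrays. The highest high fat array exceeded the lowest control array, and the difference was -0.59 ± 0.14 (limma adjusted p = 0.0432). The call was lost without control ZT20 replicate 1, 3 or 4 and without high fat ZT20 replicate 1, 2 or 3 (limma adjusted p up to 0.205), and without control ZT20 replicate 2 the number of members called at ZT20 was 8. That number was 2 or 3 without control ZT4 replicate 1 or 3, any of the 4 ZT8 arrays, high fat ZT4 replicate 3 or high fat ZT12 replicate 2.

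**Figure D4:**
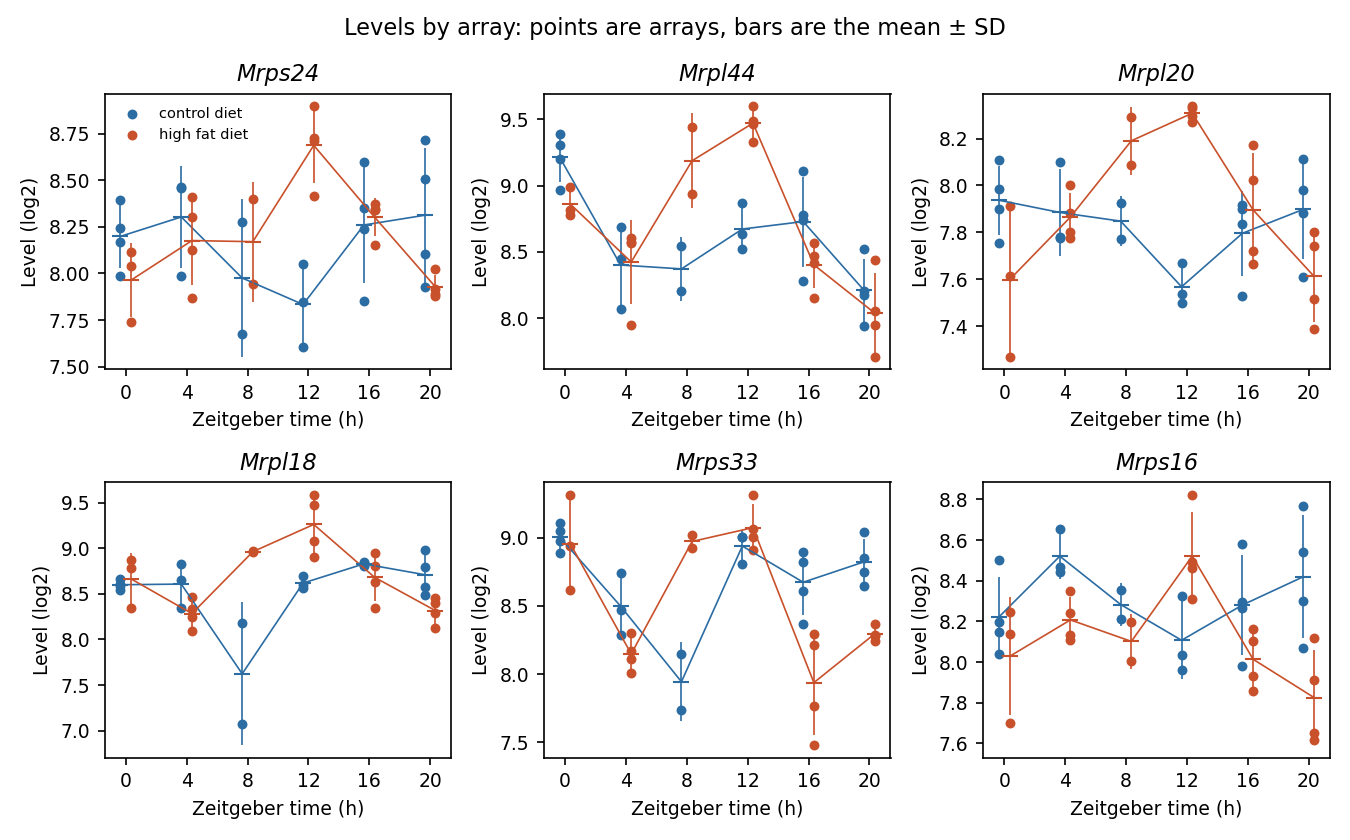
Levels (log2, vertical axis) of 6 mitochondrial ribosomal protein genes against zeitgeber time in hours, with 1 point per array and the group mean ± SD, in blue for the control and in red for the high fat diet. Mrps24, Mrpl44 and Mrpl20 are separated at ZT12, Mrpl18 and Mrps33 at ZT8, and Mrps33 and Mrps16 lie lower in the high fat diet at ZT16 and ZT20.

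Averaged over the 6 times, the diets differed little in these genes. The diet average was higher for 4 members and lower for none, against 5.52% and 2.06% of all genes (7.59% in all), and the median was 0.05 against 0.02. The 4 were Mrps27 (0.21 ± 0.06), a pentatricopeptide repeat protein of the small subunit, and Mrpl17 (0.18 ± 0.05), Mrpl28 (0.14 ± 0.04) and Mrpl21 (0.12 ± 0.04), which have bacterial counterparts (limma adjusted p between 0.0131 and 0.0472). All 4 lost the call without ZT8, without ZT12 and in a model with diet and time as additive terms. Leaving out control ZT4 replicate 3 or control ZT8 replicate 2 gave 2 calls, and leaving out control ZT8 replicate 1 gave 7.

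Whether the diet difference changed over the day was asked with an F test of diet by time. It passed in 40 of 73 members, against 19.0% of all genes. The smallest adjusted p were those of Mrps33 (0.000220), Mrps14 (0.000307), Mrpl18 (0.000397), Mrpl28 (0.000604) and Mrpl21 (0.000839), all by limma. Mrps14, a small subunit protein with a bacterial counterpart, had levels of 9.05, 8.92 and 9.16 in control and 9.95, 9.71, 9.55 and 9.53 in high fat arrays at ZT12. At ZT20 its levels were 9.71, 9.08, 9.56 and 9.71 in control and 9.29, 8.98, 8.96 and 8.99 in high fat arrays. With ZT12 left out of both diets 11 members passed, and with both ZT8 and ZT12 left out, a choice made after the data were seen, none did.

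The course within a diet was tested next, first as any difference between the 6 times. In the high fat diet 54 of 73 members varied, against 41.5% of all genes, and in the control diet 30 of 73, against 43.9%. The control share of 41.1% is thus near that of all genes. In the high fat diet the smallest adjusted p were found for Mrps33 (6.84e-07), Mrpl44 (1.27e-06), Mrps23 (9.86e-06), Mrps14 (1.59e-05) and Mrpl43 (3.10e-05) by limma. In the control diet they were found for Mrpl21 (1.56e-05), Mrpl42 (0.000272), Mrps33 (0.000273), Mrpl49 (0.000305) and Mrpl44 (0.000360) by limma.

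Each time was then set against the mean of the other 5 in the same diet. These differences are not independent, since a high or low group also shifts the mean for the other times of its diet. With the high fat diet, ZT12 was higher in 55 members and lower in none, against 19.6% and 8.14% of all genes, with a median of 0.40. Mrpl44 led with 0.89 ± 0.13, followed by Mrpl18 (0.68 ± 0.13), Mrpl40 (0.65 ± 0.13), Mrpl58 (0.64 ± 0.16) and Mrps22 (0.63 ± 0.12). Between 46 and 58 members were called with any array left out. With the control diet, ZT12 was higher in 2 members and lower in 1, against 2.59% and 2.71% of all genes (5.31% in all), and these were Mrpl37 (0.36 ± 0.11), Mrps11 (0.20 ± 0.06) and Mrpl32 (-0.35 ± 0.10). None was called without control ZT12 replicate 1, 2 or 3.

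With the control diet, ZT8 was lower in 28 members and higher in none, against 18.4% and 12.2% of all genes (30.7% in all), with a median of -0.24. The largest falls were in Mrpl18 (-1.05 ± 0.18), Mrpl30 (-0.998 ± 0.212), Mrps33 (-0.84 ± 0.15), Mrps22 (-0.76 ± 0.16) and Mrpl42 (-0.72 ± 0.13). Without control ZT8 replicate 2 the count was 8. With the high fat diet, ZT8 was higher in 3 members, Mrps33 (0.49 ± 0.15), Mrps17 (0.41 ± 0.12) and Mrpl11 (0.36 ± 0.10), and lower in none, against 3.46% and 4.09% of all genes (7.55% in all). This count was 5 without high fat ZT8 replicate 1 and 0 without replicate 2.

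At dawn the control diet was on its higher side, against a mean that holds the control ZT8 fall. How much of the difference follows from that fall was not tested. ZT0 was higher in 13 members and lower in none, against 7.24% and 4.96% of all genes, led by Mrpl44 (0.74 ± 0.13), Mrpl49 (0.58 ± 0.10), Mrpl30 (0.56 ± 0.16), Mrpl53 (0.45 ± 0.10) and Mrps33 (0.43 ± 0.12). The count was 7 without control ZT0 replicate 1 or 3. With the high fat diet, ZT0 was higher in 2 members, Mrps33 (0.47 ± 0.13) and Mrpl50 (0.40 ± 0.12), and lower in Mrpl20 (-0.38 ± 0.11), against 3.49% and 2.38% of all genes (5.87% in all). This count of 3 was 5 without control ZT20 replicate 2, 0 without high fat ZT0 replicate 2, and 1 without high fat ZT0 replicate 1 or 3 or high fat ZT8 replicate 2.

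In the high fat diet the remaining times lay on the low side, against a mean that holds the ZT12 rise. Part of these differences follows from that rise by arithmetic, and how much was not tested. ZT4 was lower in 15 members and higher in 1, Mrpl32 (0.27 ± 0.09), against 5.48% and 3.59% of all genes (9.07% in all). The largest falls were in Mrpl50 (-0.55 ± 0.11), Mrpl39 (-0.51 ± 0.12), Mrps33 (-0.50 ± 0.12), Mrps14 (-0.50 ± 0.11) and Mrpl18 (-0.49 ± 0.13), and the count of 16 was 7 without high fat ZT4 replicate 1 and 5 without replicate 4. ZT16 was lower in 10 members, against 5.50% of all genes, led by Mrps33 (-0.75 ± 0.12), Mrpl54 (-0.44 ± 0.10), Mrps14 (-0.42 ± 0.11), Mrpl23 (-0.36 ± 0.09) and Mrps17 (-0.31 ± 0.09). That count was 6, 4 and 5 without high fat ZT16 replicate 1, 2 and 3. ZT20 was lower in 12 members, against 6.18% of all genes, with Mrpl44 (-0.83 ± 0.13), Mrpl18 (-0.45 ± 0.13), Mrpl35 (-0.45 ± 0.13), Mrpl43 (-0.37 ± 0.08) and Mrpl20 (-0.36 ± 0.10) in front. Without high fat ZT20 replicate 2, 3 or 4 it was 5, 4 and 7, and without high fat ZT8 replicate 2 it was 7.

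In the control diet the later times held few calls. ZT20 was higher in 5 members, among them Mrps14 (0.44 ± 0.11) and Mrpl35 (0.38 ± 0.13), and lower in 4, led by Mrpl44 (-0.47 ± 0.13), against 7.56% and 6.27% of all genes. The count of 9 was 1 without control ZT20 replicate 1 and 5 without replicate 3. ZT16 was higher in Mrpl12 (0.34 ± 0.09), Mrpl42 (0.32 ± 0.10) and Mrpl28 (0.27 ± 0.06) and lower in none, against 3.91% and 2.42% of all genes (6.32% in all), and 1 was called without control ZT16 replicate 1, 2 or 3. ZT4 was higher in Mrps6 (0.47 ± 0.15) and Mrpl32 (0.43 ± 0.10) and lower in Mrpl49 (-0.42 ± 0.11) and Mrpl43 (-0.28 ± 0.09), against 6.25% and 4.98% of all genes. This count of 4 was 1 without control ZT4 replicate 1 and 2 without replicate 3.

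A 24 h cosine was fitted to each gene, with its amplitude as the distance from mean to peak and with peaks no finer than the 4 h sampling allows. In the high fat diet 20 of 73 members passed, against 11.2% of all genes, with amplitudes from 0.17 to 0.56 and peaks from ZT7.61 to ZT13.5 (median ZT10.9). When each time point of a diet, and with it its collection day, was a random block (correlation of arrays within a block 0.37), no member passed in either diet, against 0.386% of all genes in the high fat and 0.801% in the control diet, so the calls by cosine in this and the next paragraphs hold only without that block. Over all members, called or not, 64 of 73 fitted peaks fell between ZT8 and ZT14. In the control diet 8 passed, against 6.66%, with amplitudes from 0.23 to 0.45 and peaks from ZT18.1 to ZT21.7 (median ZT20.1), and 54 of 73 fitted peaks fell between ZT18 and ZT2. The windows for the 2 diets differ in width, and the shares of all genes in them are not given here. Most of the 73 fits did not pass in either diet.

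Mrpl20 had the smallest adjusted p in the high fat diet (4.09e-05 by limma), with an amplitude of 0.38 ± 0.05 (SE) and a peak at ZT10.3 ± 0.51. In the control diet its fit had an amplitude of 0.15 ± 0.05 and a peak at ZT23.9. Others with small adjusted p in the high fat diet were Mrps10 (0.27 ± 0.05, peak ZT11.3), Mrps7 (0.19 ± 0.04, peak ZT13.5), Mrpl11 (0.22 ± 0.05, peak ZT10.9) and Mrpl43 (0.29 ± 0.06, peak ZT11.1). All but Mrpl43 have bacterial counterparts.

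In the control diet Mrpl42 had the smallest adjusted p (0.00660 by limma), with an amplitude of 0.35 ± 0.07 and a peak at ZT19.2. It was followed by Mrpl30 (0.45 ± 0.11, peak ZT21.3), Mrpl12 (0.23 ± 0.06, peak ZT18.1), Mrpl35 (0.30 ± 0.08, peak ZT20.0) and Mrps15 (0.23 ± 0.06, peak ZT19.5). Among members that passed without the random block, fitted peaks lay from ZT18.1 to ZT21.7 in the control diet. In the high fat diet they lay from ZT7.61 to ZT13.5. The median deviation of all members in the control diet was 0.09 at ZT0 and 0.05 at ZT20, and lowest at ZT8 (-0.23). How far the control ZT8 arrays set the fitted control peaks was not tested. For Mrpl35 the peaks lay at ZT20.0 ± 0.90 in the control and at ZT7.61 ± 0.97 in the high fat diet.

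A test of the difference between the curves passed in 17 members, against 3.58% of all genes. The smallest adjusted p by limma were those of Mrpl20 (0.000650), Mrpl35 (0.00479), Mrpl11 (0.00762), Mrpl43 (0.00998) and Mrps24 (0.0142). With the random block no member passed in the difference, against 0.00585% of all genes.

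The cosine counts also leaned on single groups and arrays. Without ZT12 in both diets 1 member passed in the high fat diet, 13 in the control diet and none in the difference. Without high fat ZT12 replicate 1 or 3 the high fat count was 10. The control count was 0 without control ZT8 replicate 2, and 3 to 5 without control ZT0 replicate 2, ZT4 replicate 1, ZT8 replicate 1, ZT16 replicate 1, 2 or 3, or ZT20 replicate 1, 3 or 4. The count of differences was 7 to 11 without any of 14 arrays, which were control ZT0 replicates 1, 2 and 3, both control ZT8 arrays, control ZT20 replicates 1 and 3, all 4 high fat ZT12 arrays and high fat ZT20 replicates 2, 3 and 4.

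**Figure D5:**
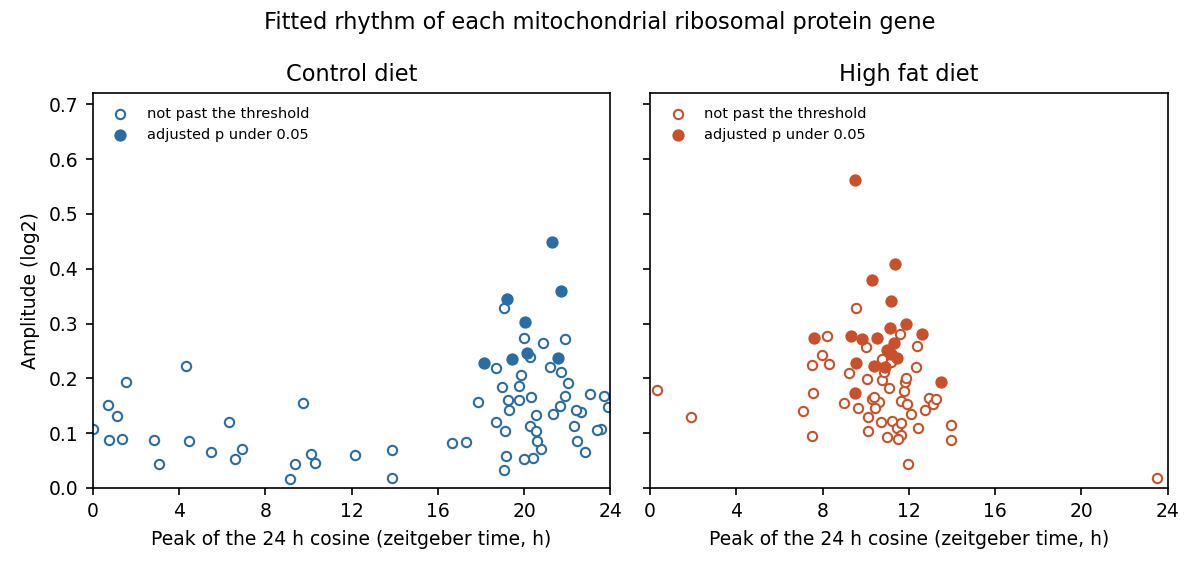
Amplitude (log2, vertical axis) against fitted peak (zeitgeber time in hours, horizontal axis) of the 24 h cosine of each mitochondrial ribosomal protein gene, for the control diet (left) and the high fat diet (right), with filled points for adjusted p under 0.05. Filled control points lie between ZT18.1 and ZT21.7 and filled high fat points between ZT7.61 and ZT13.5.

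Other genes of mitochondrial translation were read from lists chosen by function. Of 4 measured subunits with other names, 2 were higher at ZT12 in the high fat diet, Chchd1 of the small subunit (0.61 ± 0.12) and Gadd45gip1 of the large subunit (0.41 ± 0.10), and 2 at ZT8, Dap3 of the small subunit (0.57 ± 0.14) and Gadd45gip1 (0.43 ± 0.13). Of 18 factors that assemble the ribosome, 6 were higher and none lower at ZT12, led by Mpv17l2 (0.60 ± 0.20), the pseudouridine synthase Trub2 (0.54 ± 0.19), the GTPase Gtpbp10 (0.43 ± 0.13) and Ngrn (0.42 ± 0.11). The median of these 18 was 0.30. The share of all genes called higher at ZT12 and their median are given above with the diet difference. Neither list was tested against them. At ZT8, 1 was higher, the rRNA methyltransferase Mrm1 (0.54 ± 0.17), which is near the share of all genes called higher at that time.

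The partners of the ribosome were read next. Of 9 translation factors, the elongation factor Tufm was higher at ZT12 (0.58 ± 0.15), and it was higher at ZT8 (0.87 ± 0.20) together with the recycling factor Gfm2 (0.56 ± 0.17), and the median of the 9 was -0.05 at ZT12. Of 15 mitochondrial aminoacyl-tRNA synthetases, Pars2 was higher (0.42 ± 0.09) and Lars2 lower (-0.46 ± 0.15) at ZT12, while Fars2 (0.99 ± 0.26) and Pars2 (0.48 ± 0.12) were higher at ZT8 and Pars2 (0.36 ± 0.09) at ZT16, and Tars2 was lower at ZT0 (-0.36 ± 0.09). Of 11 genes that keep and transcribe mitochondrial DNA, the single-strand binding protein Ssbp1 was higher at ZT12 (0.59 ± 0.15). Of 8 regulators of mitochondrial genes, Esrra was higher (0.50 ± 0.11) and Myc lower (-0.32 ± 0.11) at ZT12, and Yy1 was higher at ZT8 (0.40 ± 0.12). At ZT12 the share called higher in each list of this paragraph was no larger than that of all genes, given above. The share of all genes called higher at ZT8 is also given above, and the few calls per list were not tested against it. All genes named here passed in limma over all genes, and their differences from the mitochondrial ribosomal protein genes were not tested. Values of these genes, of the markers and of the 2 groups that follow at ZT8 were not recomputed without single arrays.

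Proteins of the cytosolic ribosome and of respiratory complex I, which holds subunits made by the mitochondrial ribosome, were read the same way. At ZT12, 55 of 69 cytosolic ribosomal protein genes were higher and 1 lower, with a median of 0.25, and 26 of 32 complex I genes were higher, with a median of 0.47. At ZT8 the counts higher were 47 and 14 and the medians 0.26 and 0.37. The shares of the mitochondrial ribosomal protein genes were not tested against these. Cosines passed in the high fat diet for 52 of 69 cytosolic ribosomal protein genes and 15 of 32 complex I genes, without the random block of time points. With that block 0.386% of all genes passed in the high fat diet, and the counts of these groups with it are not given here.

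Several members have more than 1 probe set, and these did not always agree. For 38 members 56 further probe sets were measured, of which 40 had the same sign at ZT12 as the probe set used, 19 were higher and 2 lower past the threshold. At ZT8, 33 of the 56 had the same sign, with a median of 0.07, and 4 were higher and 1 lower. Of the 11 further probe sets of genes called at ZT8, 8 had the same sign and none passed, while at ZT12 12 of 28 passed as higher. Mrpl50, without a difference by its main probe set, was higher by another (0.79 ± 0.21), and so was Mrpl3 (0.47 ± 0.12 against 0.03 ± 0.21). Mrpl19 showed 0.31 ± 0.13 by the probe set used and -0.66 ± 0.24 by another of nearly equal mean level, 8.29 and 8.27. The second probe set of Mrps24 gave 0.29 ± 0.15 and that of Mrpl44 0.34 ± 0.14, both short of the threshold, while the second of Mrpl13 gave 0.65 ± 0.16 and passed. Which transcripts these probe sets detect was not analysed here.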

How the data were processed

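RNA levels were measured on 41 Affymetrix arrays. Amplification started from 25 ng of RNA and ran for 17 cycles, per the labels. The deposited values are on the log2 scale, judged from their range of 2.17 to 13.5, and were made by the authors with RMA per the submitters' processing notes, with version and any batch adjustment not given in the sources used here. RMA corrects background, normalizes between arrays and so can hide a shift common to all genes. Array medians lay between 6.41 and 6.44, no 2 arrays were identical, and signal over background is unknown, so the number of arrays limits precision.

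Of 45141 probe sets, 28898 had 1 gene and 551 several, which were left out, 6 of them shared by a member. The 73 members had 129 probe sets. No filter on low values was applied, so every member was tested.

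limma 3.58.1 (R 4.3.3, the data.table package, version 1.17.8) fitted a mean for each of 12 groups (29 residual and 2.63 prior degrees of freedom), with contrasts of diet, an F test of diet by time, F tests within a diet and each time against the other 5, and a 24 h cosine per diet (35 residual degrees of freedom). P-values were adjusted by Benjamini-Hochberg over 17097 genes. Figures used matplotlib 3.10.9. On simulated data at ZT12, with 17097 genes, 78% of differences of 0.5 and 99% of differences of 1 were recovered. There were 12 false calls. Each size was given to 100 genes, over flat means with independent normal spread and no day effect. A diet difference at ZT8 was not simulated. The members and lists were chosen with earlier results of these data known. Named are up to 5 rises and 5 falls per contrast past the threshold, the 5 smallest adjusted p per F test and cosine, members against the main direction, the Mrps18 paralogues, the highest and lowest mean, and up to 4 genes per list. Promoters were read from RefSeq (GRCm38.p6) for 65 members, with no entry for 8. Alternatives were averaged probe sets, dim genes left out, trended and robust eBayes, array weights, 2 centrings, a replicate block, each array or ZT8 or ZT12 left out, an additive model, only the groups compared and a random block of time points.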

Additional observations from a re-analysis of the deposited data

Results flagged for a closer look

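The diet difference in mitochondrial ribosomal protein genes varied between time points, by the test of that difference itself. Collection day and time point cannot be told apart, and whether both diets shared a day is not given. Variation between days was therefore not separated from variation between times. Cell markers also stood apart in ZT8 arrays, and their part was not tested. The F test of diet by time passed in 40 members, with limma adjusted p of 0.000220 for Mrps33, 0.000307 for Mrps14, 0.000397 for Mrpl18, 0.000604 for Mrpl28 and 0.000839 for Mrpl21. The share over all genes was 19.0%, 11 members passed without ZT12 and none without ZT8 and ZT12, and 0 of these 5 genes kept the call under each alternative. The 24 h curves differed between the diets in 17 members, with limma adjusted p of 0.000650 for Mrpl20, 0.00479 for Mrpl35, 0.00762 for Mrpl11, 0.00998 for Mrpl43 and 0.0142 for Mrps24. Over all genes the share was 3.58%, no member passed with the random block of time points or without ZT12, and 0 of these 5 kept the call under each alternative. In 16 sets of 4 arrays, of the median deviation or of a gene named for a diet difference, no lone array stood apart from the others by Dixon's test, and groups of 2 or 3 arrays were not tested.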

How the results depend on the processing

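Counts of members past the threshold kept within 1.5 times of the stated count unless given here, and the cause of a change was not tested unless the alternative itself removes arrays. The replicate numbers did not pair the arrays, since 2 of 19 same-numbered pairs correlated above 0.1 in their deviations (from -0.272 to 0.248, median -0.0639) and 2 correlated best with their own number.

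With the replicate block the counts were 0 for diet at ZT20, 2 for control ZT4 and 0 for control ZT12 against the other times and 3 for the control cosine, and 14 at ZT8 and 34 at ZT12. With array weights they were 1 for diet at ZT0, 4 at ZT8 and 6 at ZT20, 6 for control ZT12, 5 for high fat ZT0, 0 for high fat ZT8 and 19 for high fat ZT20 against the other times, 3 for the control cosine and 10 for the cosine difference. With probe sets averaged per gene they were 2 for diet at ZT20 and 4 for the control cosine. Diet at ZT20 had 2 calls without the dimmest 25% of genes, 4 with medians of tested genes subtracted and 2 with medians of all probe sets subtracted. High fat ZT8 against the other times had 5 calls with medians of tested genes subtracted, and diet at ZT12 had 30. With only the groups compared, diet at ZT8, ZT16 and ZT20 each had 0 calls, and at ZT12 28, of which 26 were shared. The additive model left 0 for the diet average.

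Without ZT8 the counts were 3 for diet at ZT20, 2 for the diet average, both lower, 15 for any control course, 1 for the control cosine and 7 for the cosine difference. Without ZT12 they were 1 for the diet average, also lower, 11 for diet by time, 20 for any high fat course, 13 for the control cosine, 1 for the high fat cosine and 0 for the difference. Without both, a choice made after seeing the data, they were 2 for diet at ZT20, 0 for diet by time, 11 for any control course, 12 for any high fat course, 4 and 3 for the control and high fat cosines and 0 for their difference. The Mrpl17 diet average then turned to -0.017, the Mrpl28 diet average to -0.00054 and the Mrpl21 diet average to -0.065. With the random block the cosine counts were 0 in the control diet, 0 in the high fat diet and 0 for the difference.

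With each array left out the counts ran from 0 to 23 for diet at ZT8, 24 to 38 at ZT12, 0 to 8 at ZT20 and 2 to 7 for the diet average, and stayed at 0 at ZT0 and ZT4 and at 1 at ZT16. Against the other times they ran from 7 to 16, 1 to 5, 8 to 29, 0 to 3, 1 to 4 and 1 to 11 for the control times from ZT0 to ZT20, and from 0 to 5, 5 to 20, 0 to 5, 46 to 58, 4 to 13 and 4 to 16 for the same high fat times. They ran from 28 to 45 for diet by time, 21 to 33 for any control course, 51 to 56 for any high fat course, 0 to 9 and 10 to 29 for the control and high fat cosines and 7 to 23 for their difference. Of 46 named results, 11 kept their call under each alternative and with each array left out, which were 4 of 5 for diet at ZT12, 5 of 5 for any high fat course and 2 of 5 for any control course. These were 0 of 5 for diet at ZT8, diet by time, each cosine and the cosine difference, 0 of 4 for the diet average and 0 of 1 at ZT16 and at ZT20.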
